A study of Homo sapiens with 6 samples.

Results

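Regions near chromosome ends were taken as all KDM3B and H3K9me2 regions whose centre lay within 3 Mb of either end of an autosome, by hg19 chromosome length. They numbered 20316 of the 126184 regions in the 4 deposited lists, and position was the only property used to choose them. Of these, 1008 came from KDM3B_Con, 523 from KDM3B_KD, 890 from H3K9me2_Con and 17895 from H3K9me2_KD. Chromatin immunoprecipitation and sequencing (ChIP-seq) was performed in HCT116, an established human colorectal carcinoma line that carries a mutant β-catenin. The control population, labelled Con, carried a scrambled RNA, and the depleted population, labelled KD, carried RNA against both KDM3A and KDM3B (the study's text describes a stably expressed short hairpin, HCT116/ABsh-1 against HCT116/Scrsh, whereas the deposited labels describe siRNA transfection). Each antibody was used once per population and each population had 1 input library, so that 6 libraries gave 4 lists, no condition had a replicate, and no difference between Con and KD could be tested. As the lists hold no read counts, library depth is unknown, and a difference in depth or in enrichment cannot be told apart from a difference between the populations. No value in the lists measures how far KDM3A or KDM3B was depleted. All intervals below are 95% intervals that cover counting error only, and neighbouring regions are not independent of each other.

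KDM3A and KDM3B are demethylases that remove mono- and dimethyl marks from lysine 9 of histone H3, and H3K9me2, the dimethyl mark, is a feature of repressed chromatin that the methyltransferases EHMT1 and EHMT2 deposit. The last megabases of human chromosome arms lie next to the telomere, whose DNA is an array of TTAGGG units. Many of these arms end in sequence that is rich in G and C, in genes and in short tandem repeats. The outermost sequence is often duplicated between chromosomes, and reads from such copies have no unique position.

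Members that stood at the top of their list are shown as examples and need not be typical of it. Among members outside untranslated regions and on the chromosomes from which sequence is given here, the highest score of KDM3B_Con was at chr16:89631601-89632600, near RPL13, a ribosomal protein gene. That of KDM3B_KD was at chr18:108001-108500, the widest KDM3B_KD member was at chr20:61688101-61689100, that of H3K9me2_Con with the highest score was in an intron of COL23A1 at chr5:178012501-178012800, and a 5600-bp region of H3K9me2_KD at the corepressor gene CBFA2T3, chr16:89001501-89007100, had both the highest score and the largest width. The central 300 bases or the whole of each region are given 5′ to 3′ on the plus strand of hg19, with CpG sites in capitals.
KDM3B_Con, chr16:89631951-89632250: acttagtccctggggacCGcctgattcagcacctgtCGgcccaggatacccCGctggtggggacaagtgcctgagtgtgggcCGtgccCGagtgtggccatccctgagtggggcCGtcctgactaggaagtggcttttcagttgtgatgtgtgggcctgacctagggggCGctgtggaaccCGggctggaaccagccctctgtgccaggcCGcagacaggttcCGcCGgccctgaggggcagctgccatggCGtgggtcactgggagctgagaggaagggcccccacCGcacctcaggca
KDM3B_KD, chr18:108101-108400: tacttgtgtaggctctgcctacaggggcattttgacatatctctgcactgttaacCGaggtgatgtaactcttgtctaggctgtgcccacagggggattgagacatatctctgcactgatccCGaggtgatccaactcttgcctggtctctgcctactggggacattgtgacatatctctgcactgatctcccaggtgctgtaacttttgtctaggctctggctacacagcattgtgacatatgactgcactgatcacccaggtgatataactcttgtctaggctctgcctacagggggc
KDM3B_KD, chr20:61688451-61688750: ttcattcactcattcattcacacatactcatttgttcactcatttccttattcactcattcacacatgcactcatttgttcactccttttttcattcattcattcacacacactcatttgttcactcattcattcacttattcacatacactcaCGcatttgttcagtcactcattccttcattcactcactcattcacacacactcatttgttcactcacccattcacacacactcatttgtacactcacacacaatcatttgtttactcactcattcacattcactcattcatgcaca
H3K9me2_Con, chr5:178012501-178012800: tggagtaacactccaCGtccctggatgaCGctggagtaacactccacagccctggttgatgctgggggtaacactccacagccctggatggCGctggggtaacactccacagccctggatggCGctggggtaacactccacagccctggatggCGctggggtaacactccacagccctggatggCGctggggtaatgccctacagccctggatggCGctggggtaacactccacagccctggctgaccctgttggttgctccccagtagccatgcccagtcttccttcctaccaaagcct
H3K9me2_KD, chr16:89004151-89004450: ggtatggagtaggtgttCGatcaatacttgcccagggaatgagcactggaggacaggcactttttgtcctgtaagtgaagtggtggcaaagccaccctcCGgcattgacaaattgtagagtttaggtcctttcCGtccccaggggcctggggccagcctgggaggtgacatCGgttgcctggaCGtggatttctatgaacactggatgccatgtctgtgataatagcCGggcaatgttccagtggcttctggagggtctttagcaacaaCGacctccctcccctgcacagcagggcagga
The sequences differ in kind. Those from the long arm of chromosome 16 held 13 (KDM3B_Con) and 7 (H3K9me2_KD) CpGs, and the 2 regions they came from had GC contents of 63.1% and 63.6%. The KDM3B_KD sequences from chromosomes 18 and 20 held 2 CpGs and 1, in regions of 48.6% and 42.5% GC. Both regions lay below the mean of 61.4% GC for KDM3B_KD regions at the ends. The COL23A1 sequence is a tandem repeat, in which a share of 0.714 of the bases matched the base 31 bp further on. Units also recur in both KDM3B_KD sequences, but less exactly. The highest such share was 0.570 on chromosome 20 (42 bp further on) and 0.472 on chromosome 18 (67 bp). For the regions on chromosome 16 it was 0.353 (KDM3B_Con) and 0.326 (H3K9me2_KD). These shares are below the 70% of the definition given below. Few H3K9me2_Con regions at the ends (1.69%) were tandem by the definition given below.

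Telomere units within the regions were rare. Members holding TTAGGG or its reverse complement CCCTAA at least 2 times in a row numbered 6 of 17895 (0.0335%) in H3K9me2_KD. Elsewhere on the autosomes, 3 of 70094 H3K9me2_KD regions (0.00428%) did so. The other lists had 0 such members, among 1008 (KDM3B_Con), 523 (KDM3B_KD) and 890 (H3K9me2_Con), too few to show a share of that size. An H3K9me2_KD member from the long arm of chromosome 13 is shown as an example. The units are in capitals and the rest is in lower case, again on the plus strand of hg19. This member is intergenic, 4316 bp from CFAP97D2.
H3K9me2_KD, chr13:114915758-114915877: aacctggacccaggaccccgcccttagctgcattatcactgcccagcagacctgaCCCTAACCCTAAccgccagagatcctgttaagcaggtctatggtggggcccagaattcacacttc
This member held CCCTAA 2 times in succession.

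Density was set against assembled bases, that is, bases that are not N in hg19. Assembled bases within 3 Mb of an end came to 113.8 Mb, or 4.24% of the autosomes, and 39 of the 44 ends held any. In Con, KDM3B regions lay at 8.86 per Mb at the ends (8.32 to 9.42) against 6.31 per Mb elsewhere (6.21 to 6.41), a ratio of 1.40 (1.32 to 1.50). In KD these were 4.60 and 2.87 per Mb, with a ratio of 1.60 (1.46 to 1.75). H3K9me2 regions in Con lay at 7.82 per Mb at the ends and 4.05 elsewhere, a ratio of 1.93 (1.80 to 2.07). For H3K9me2 in KD the densities were 157 and 27.3 per Mb, and their ratio was 5.77 (5.67 to 5.86). Thus all 4 lists were denser at the ends than elsewhere, and H3K9me2_KD by the widest margin. The ends held 5.85% of the autosomal KDM3B_Con regions, 6.62% of KDM3B_KD, 7.87% of H3K9me2_Con and 20.3% of H3K9me2_KD.

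H3K9me2_KD regions at the ends were also wider. Their mean width was 410 bp against 287 bp elsewhere, 9.51% against 3.73% were 1 kb or wider, and the median of the score deposited with each region was 42 against 29. In all, the ends held 26.8% of all autosomal bases covered in H3K9me2_KD, and by covered bases the ratio of ends to elsewhere was 8.25. For the other lists the mean widths were closer, 195 against 182 bp in KDM3B_Con, 174 against 162 bp in KDM3B_KD and 156 against 144 bp in H3K9me2_Con. H3K9me2_KD regions were closely spaced at the ends, with a median gap of 1100 bp to the next region against 2800 bp elsewhere. When regions less than 1 kb apart were joined, 83 stretches of at least 10 kb formed at the ends and 57 on all remaining autosomal sequence, whereas the other 3 lists formed none. The widest was 35900 bp long, at chr16:88523101-88559000. Of the 100 windows of 100 kb with the most bases covered by H3K9me2_KD, 56 lay at the ends, where 4.10% of such windows lie.

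The excess did not sit at the very tip. H3K9me2_KD density was 40.9 per Mb in the outermost 0.1 Mb, 78.7 per Mb between 0.1 and 0.25 Mb, and highest between 1 and 1.5 Mb, at 187 per Mb. It was 144 per Mb from 2 to 3 Mb, just inside the limit that defines the ends, and 112 per Mb from 3 to 5 Mb, just outside it, and declined to 13.2 per Mb beyond 50 Mb. No step was seen at 3 Mb in this list. KDM3B_Con ranged from 4.55 per Mb in the outermost 0.1 Mb to 10.6 per Mb between 1 and 1.5 Mb, and was 7.87 and 9.32 per Mb just inside and just outside the limit. H3K9me2_Con was 5.37 per Mb in the outermost 0.1 Mb, 8.26 just inside 3 Mb and 8.13 just outside.

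**Figure D1:**
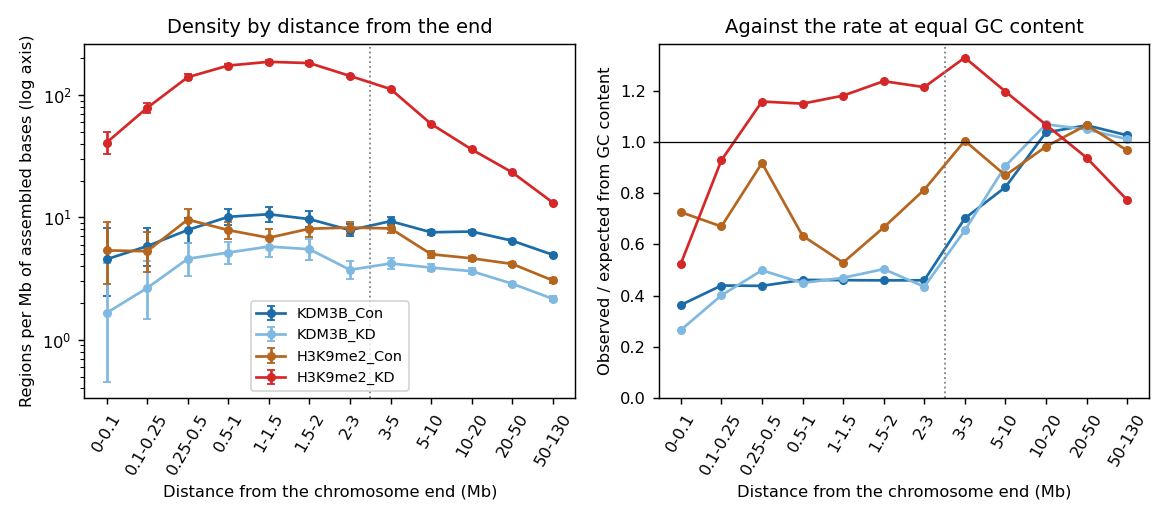
Left, regions per Mb of assembled autosomal bases (log axis, bars are 95% counting intervals) by distance from the nearest chromosome end in Mb, for the 4 lists; right, the same counts divided by the number expected from the rate, elsewhere on the autosomes, in 1-kb tiles of equal GC content, with the dotted line at 3 Mb. H3K9me2_KD was highest in density at 1 to 1.5 Mb (187 per Mb), while both KDM3B lists stayed between 0.266 and 0.503 of the GC expectation inside 3 Mb.

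Base composition differed strongly between the ends and the remainder. GC content was 48.4% at the ends and 40.7% elsewhere, there were 20.4 against 9.50 CpGs per kb, and 14.7% against 1.41% of 1-kb tiles had a GC content of 60% or more. Regions of every list at the ends were richer still, with a mean GC content of 59.2% (SD 8.94) in KDM3B_Con, 61.4% (SD 9.99) in KDM3B_KD, 62.2% (SD 8.57) in H3K9me2_Con and 63.4% (SD 5.09) in H3K9me2_KD. Therefore the number of regions at the ends was compared with the number expected if each 1-kb tile there carried regions at the rate of tiles of equal GC content (classes of 2 percentage points) elsewhere on the autosomes.

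At equal GC content KDM3B was sparser at the ends, not denser. In Con 1007 regions were observed against 2206 expected, a ratio of 0.456 (0.429 to 0.486), and in KD 522 against 1137, a ratio of 0.459 (0.421 to 0.500). H3K9me2_Con was below its expectation too, with 890 against 1273, a ratio of 0.699 (0.654 to 0.746). Only H3K9me2_KD was above it, with 17888 against 15198, a ratio of 1.18 (1.16 to 1.19), where its density ratio had been 5.77. This last excess did not hold under every way of counting. With tiles matched on both GC content and CpG count the ratio was 1.02 (1.01 to 1.04), and with regions less than 1 kb apart joined it was 0.972, whereas by covered bases it was 1.35. KDM3B_Con and KDM3B_KD were still at 0.515 and 0.540 of expectation with CpG count included, and H3K9me2_Con at 0.705.

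The departure from equal composition depended on GC content, and is given here over 10-point classes with the expectation still taken in classes of 2 percentage points. For KDM3B_Con the ratio of observed to expected regions at the ends was 0.726 (0.506 to 1.01) in tiles of 30 to 40% GC, 0.673 (0.582 to 0.773) at 40 to 50%, 0.419 (0.376 to 0.466) at 50 to 60%, 0.382 (0.344 to 0.423) at 60 to 70% and 0.901 (0.679 to 1.17) at 70 to 80%. In tiles of 60 to 70% GC this meant 24.4 regions per 1000 tiles at the ends and 61.4 elsewhere. H3K9me2_KD showed its greatest relative excess in tiles of low or middling GC, 1.90 (1.27 to 2.75) at 30 to 40% and 1.83 (1.72 to 1.94) at 40 to 50%, where regions were few (1.18 and 26.5 per 1000 tiles at the ends). The ratio was 1.09 (1.06 to 1.11) at 50 to 60% and 1.21 (1.18 to 1.23) at 60 to 70%, where the ends held 569 regions per 1000 tiles and the remainder 479.

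**Figure D2:**
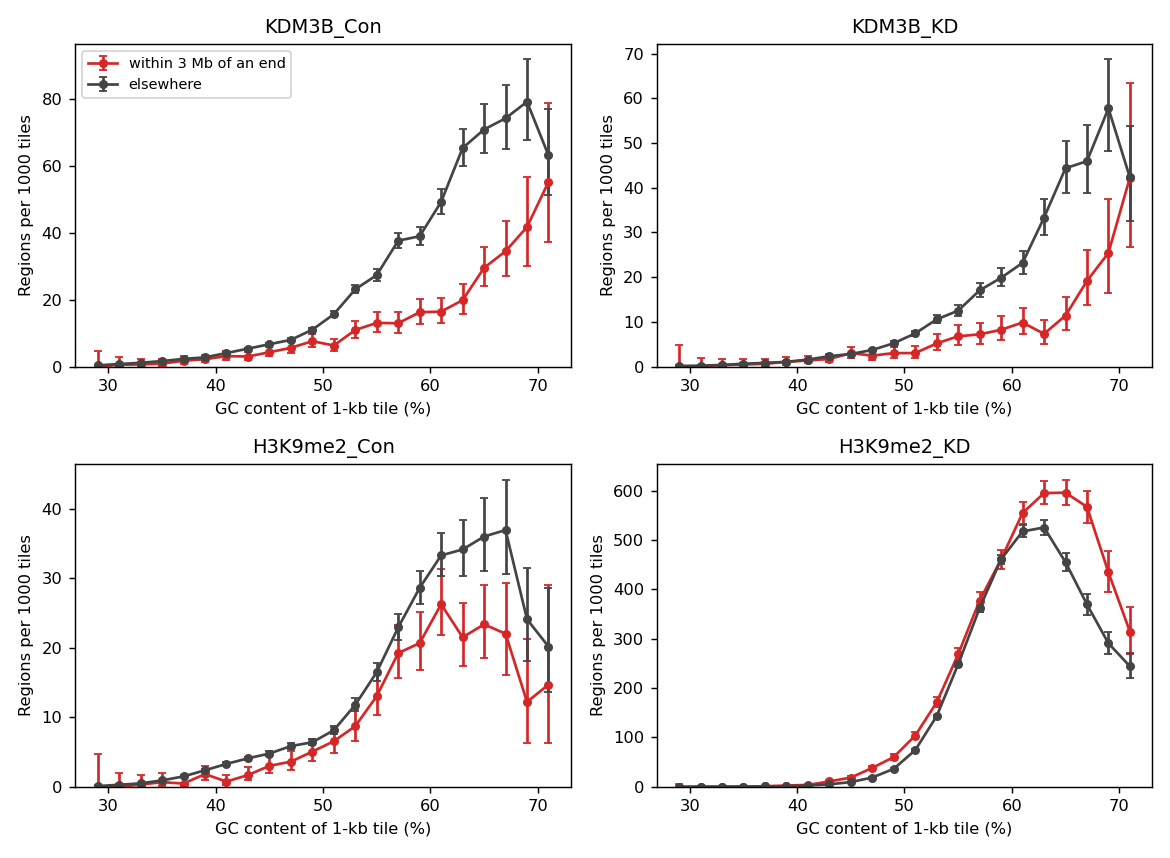
Regions per 1000 tiles of 1 kb against the GC content of the tile (%), within 3 Mb of an autosome end (red) and elsewhere (grey), for each list, with 95% counting intervals and classes of at least 500 tiles in both places. Both KDM3B curves lie lower at the ends over most of the range above 50% GC, and the H3K9me2_KD curve lies higher at the ends in all 11 classes from 36 to 58% GC and all 6 from 60% upwards, while at 58 to 60% both stood at 461 per 1000 tiles and in 3 of the 4 classes below 36% the ends were lower.

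With distance, the standardised ratio of KDM3B_Con was 0.363 in the outermost 0.1 Mb, between 0.438 and 0.461 from there to 3 Mb, 0.701 at 3 to 5 Mb and 1.04 at 10 to 20 Mb. H3K9me2_KD was below expectation in the outermost 0.1 Mb (0.524) and from 0.1 to 0.25 Mb (0.928), above it from 0.25 to 3 Mb, at 1.15 to 1.24, and highest at 3 to 5 Mb, outside the ends as defined here, at 1.33. Beyond 50 Mb it was 0.774. The H3K9me2_KD excess at equal GC content was therefore not particular to the last 3 Mb.

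Individual ends varied widely. H3K9me2_KD was densest on 17q, with 1132 regions or 384 per Mb, followed by 16q (1030 regions, 356 per Mb), 11p (997, 345 per Mb), 9q (979, 339 per Mb) and 21q (1003, 335 per Mb). Fewest were found on 3p with 0, 18p with 25 and 9p with 31. KDM3B_Con was densest on 19p with 80 regions (27.2 per Mb), 17q with 68, 8q with 63, 16p with 55 and 16q with 52, and sparsest on 3p with 0, 10q with 3 and 10p with 5. Density followed the GC content of the end, which ran from 37.1% on 3p to 56.7% on 16p. Over the 39 ends Spearman's rank correlation between GC content and regions per Mb was 0.889 for H3K9me2_KD (Pearson's r = 0.899), 0.663 for KDM3B_Con (r = 0.687), 0.660 for KDM3B_KD (r = 0.643) and 0.485 for H3K9me2_Con (r = 0.515), as a description, since all points of a list come from the same library.

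Several ends stood apart from their composition. On 10q, with 51.9% GC, 105 H3K9me2_KD regions were counted, 0.188 of the expected number, and the 3 KDM3B_Con regions there compared with 74.2 expected. The short arm of chromosome 3 held no region of any list in its last 3 Mb, where 8.53 KDM3B_Con regions were expected. On the other side, 21q and 17q held 1.75 and 1.69 times the expected number of H3K9me2_KD regions. H3K9me2_Con had its highest ratio on 9p, with 29 regions or 2.71 times the expected number. In all, 33 of 39 ends were denser in H3K9me2_KD than the rest of their own chromosome, and 24 held more than the number expected from GC. For KDM3B_Con these counts were 23 and 3.

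The difference between populations had the same direction at nearly all ends. KDM3B regions at the ends numbered 1008 in Con and 523 in KD, a ratio of 0.519 (0.466 to 0.577), against 0.455 (0.443 to 0.468) elsewhere. The number was lower in KD at 37 ends, equal at 2 and higher at 0. H3K9me2 regions at the ends numbered 890 in Con and 17895 in KD, a ratio of 20.1 (18.8 to 21.5), against 6.73 (6.59 to 6.87) elsewhere, and by covered bases the ratios were 53.0 and 13.4. They were more numerous in KD at 38 ends and equal, at 0, on 3p. The ratio of KD to Con over these 38 ends ran from 1.07 on 9p, where 29 regions in Con stood against 31 in KD, to 178.5 on 17p, where 2 stood against 357, with a median of 18.3. The comparison of ends with elsewhere in this paragraph is not matched on GC content. At equal GC content the ends held 0.456 (Con) and 0.459 (KD) of the expected KDM3B regions. For H3K9me2 the values were 0.699 (Con) and 1.18 (KD).

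List size bears on the KD to Con ratios directly, since the whole H3K9me2_KD list held 88855 regions and H3K9me2_Con 11645. When each KD and Con pair was cut to equal numbers from the highest score down, the ratio at the ends was 4.16 for H3K9me2, with 31.9% of the KD regions and 7.87% of the Con regions at the ends. For KDM3B it was 1.18, which is the opposite direction to that of the full lists. Equal list sizes set the ratio over the whole list to 1 by construction.

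**Figure D3:**
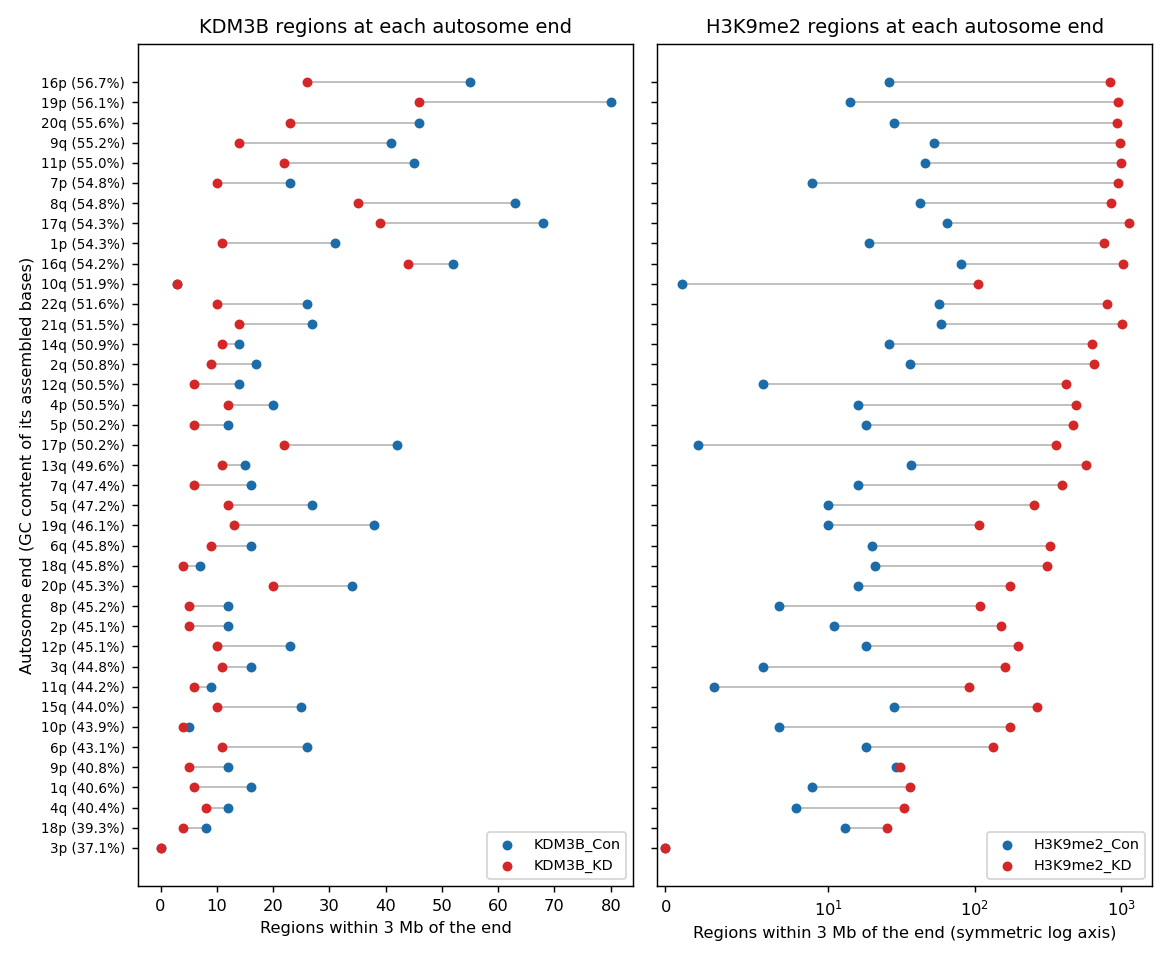
Regions within 3 Mb of each of the 39 autosome ends with assembled bases, ordered by GC content, in Con (blue) and KD (red), 1 library each, with KDM3B on a linear axis and H3K9me2 on a symmetric log axis. KDM3B counts were lower in KD at 37 ends, and H3K9me2 counts were higher in KD at 38, from 29 against 31 on 9p to 2 against 357 on 17p.

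Regions that were present in Con were recovered unevenly. Of the 890 H3K9me2_Con regions at the ends, 637, or 71.6% (68.5 to 74.4), overlapped an H3K9me2_KD region by at least 1 bp, against 33.0% (32.1 to 33.9) elsewhere. From the other side, 3.37% of H3K9me2_KD regions at the ends overlapped an H3K9me2_Con region, against 4.74% elsewhere. The share of KDM3B_Con regions overlapped by KDM3B_KD was 27.3% (24.6 to 30.1) at the ends and 25.9% (25.2 to 26.5) elsewhere. KDM3B and H3K9me2 seldom met in either place. Only 1 of the 1008 KDM3B_Con regions at the ends (0.0992%) overlapped an H3K9me2_Con region, against 0.0863% elsewhere. The share that overlapped an H3K9me2_KD region was 1.69% (17 regions, 1.06 to 2.68) at the ends and 0.456% (0.363 to 0.572) elsewhere. However, 710 (70.4%) of those at the ends had an H3K9me2_KD region within 5 kb, against 31.1% elsewhere. The density of H3K9me2_KD differed between the places in the same direction, and its part in these shares was not tested.

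Annotation classes were assigned from GENCODE by the region's centre, with 3 kb upstream of any transcription start site (TSS) taken as promoter. Promoter took precedence over every other class, so that coding exons and introns here are only those outside promoters. Promoters held 45.6% of KDM3B_Con regions at the ends (42.6 to 48.7) and 35.6% elsewhere, where they made up 19.6% and 10.7% of the bases, respectively. Of H3K9me2_KD regions at the ends 27.2% lay in promoters, 39.3% in introns, 22.0% in intergenic sequence and 4.53% in coding exons. Elsewhere these shares were 24.7%, 41.0%, 19.5% and 8.22%. Of the bases at the ends, 46.0% were intron and 27.8% intergenic. The coding share of regions was thus lower at the ends, although this class made up more of the bases there (1.58% against 0.870%). H3K9me2_Con members lay in promoters in 20.4% of cases (17.9 to 23.2), close to the share of promoters in the bases, and in introns in 38.2%. Elsewhere the H3K9me2_Con shares were 15.1% and 43.8%.

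Tandem repeats were more frequent in the sequence of the ends than elsewhere. A stretch of 300 bp was called tandem when at least 70% of its bases matched those at a fixed lag of 6 to 100 bp. Such stretches marked 2.25% of 1-kb tiles at the ends and 0.164% elsewhere. An H3K9me2_KD region was centred in 8.44% (7.43 to 9.58) of tandem tiles at the ends and in 14.8% (14.6 to 15.0) of the other tiles there, although the tandem tiles had the higher GC content, 55.9% against 48.2%. Elsewhere on the autosomes the order was the opposite, with 3.50% (2.98 to 4.09) of tandem tiles and 2.59% of other tiles. The tandem tiles there had the higher GC content as well, 43.2% against 40.7%, and the part of GC content in this order was not tested. Tandem shares at the ends were also counted by GC content, taken over each region's own width and over 1 kb for tiles. At 60 to 70% GC, 0.624% of H3K9me2_KD regions were tandem against 5.12% of tiles. At 40 to 50% GC the shares were 1.90% and 1.10%, but the first rests on only 6 of 316 regions. Among the regions themselves 0.682% in H3K9me2_KD, 1.69% in H3K9me2_Con, 1.19% in KDM3B_Con and 1.53% in KDM3B_KD were tandem at the ends. Tiles with a pair of TTAGGG or CCCTAA units in a row made up 0.107% of tiles at the ends and 0.0223% elsewhere, and 23 of these 122 tiles at the ends (18.9%, 12.9 to 26.7) held the centre of an H3K9me2_KD region.

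Genes at the ends were then examined through windows of 5 kb on either side of the canonical TSS. Of 1624 protein-coding genes there, 1104 (68.0%, 65.7 to 70.2) had an H3K9me2_KD region in the window, where the background over all 18978 autosomal genes was 41.8%. KDM3B_Con regions marked 412 genes (25.4%, against a background of 28.5%), KDM3B_KD marked 263 (16.2%, against 15.1%) and H3K9me2_Con marked 112 (6.90%, against 6.2%). Thus H3K9me2_KD alone stood well away from its background. Genes with H3K9me2 in KD but not in Con numbered 993, those with it in both 111, and those with it in Con but not in KD 1. As shares of the genes these were 61.1%, 6.83% and 0.0616% at the ends, and 34.0%, 5.35% and 0.784% elsewhere.

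Window composition accompanied this difference. Among genes whose window had 55 to 65% GC, H3K9me2_KD marked 91.8% at the ends (89.6 to 93.6) and 92.4% elsewhere (91.1 to 93.6). At 45 to 55% GC the shares were 51.7% (47.6 to 55.7) and 49.4%, and at 35 to 45% they were 10.4% (6.84 to 15.5) and 15.4%. KDM3B_Con marked fewer genes at the ends in each of these classes, 28.2% against 36.5% at 55 to 65% GC, 23.6% against 30.4% at 45 to 55% and 13.0% against 25.9% at 35 to 45%. Genes at the ends that had KDM3B in Con and not in KD carried H3K9me2_KD in 172 of 243 cases (70.8%, 64.8 to 76.1). Those with KDM3B in both carried it in 72.2% (65.0 to 78.4) and those with no KDM3B in 66.8% (64.0 to 69.5), so that these shares had overlapping intervals.

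**Figure D4:**
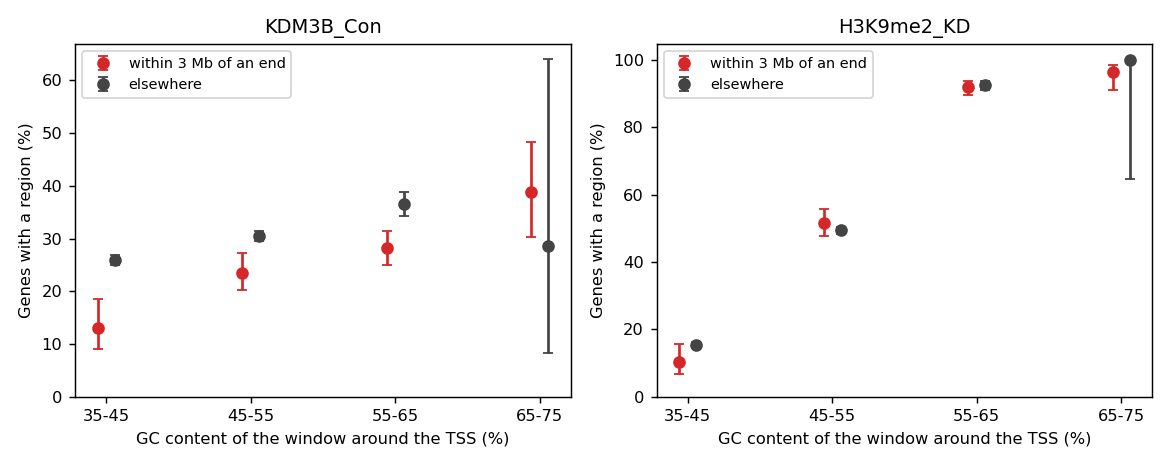
Percent of protein-coding genes with a KDM3B_Con (left) or H3K9me2_KD (right) region within 5 kb of the TSS, by GC content of that window (%), within 3 Mb of an autosome end (red) and elsewhere (grey), with 95% Wilson intervals. H3K9me2_KD shares were 91.8% and 92.4% at 55 to 65% GC, and the class of 65 to 75% GC held 108 genes at the ends and only 7 elsewhere.

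Around the TSS the lists took different shapes. KDM3B_Con covered 4.95% of TSSs at the ends at its maximum, between 200 and 100 bp upstream, and 8.41% elsewhere at the same position. KDM3B_KD reached 3.34% at the ends and 3.78% elsewhere. H3K9me2_KD was highest at the ends between 1500 and 1600 bp downstream, at 16%, and elsewhere between 500 and 600 bp downstream, at 6.21%. Its mean over the 5 kb on either side was 11.6% at the ends and 2.84% elsewhere, and at the ends it was lower within 500 bp of the TSS (7.44%) than beyond 4 kb (11.3%). H3K9me2_Con covered at most 0.361% of TSSs at the ends.

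**Figure D5:**
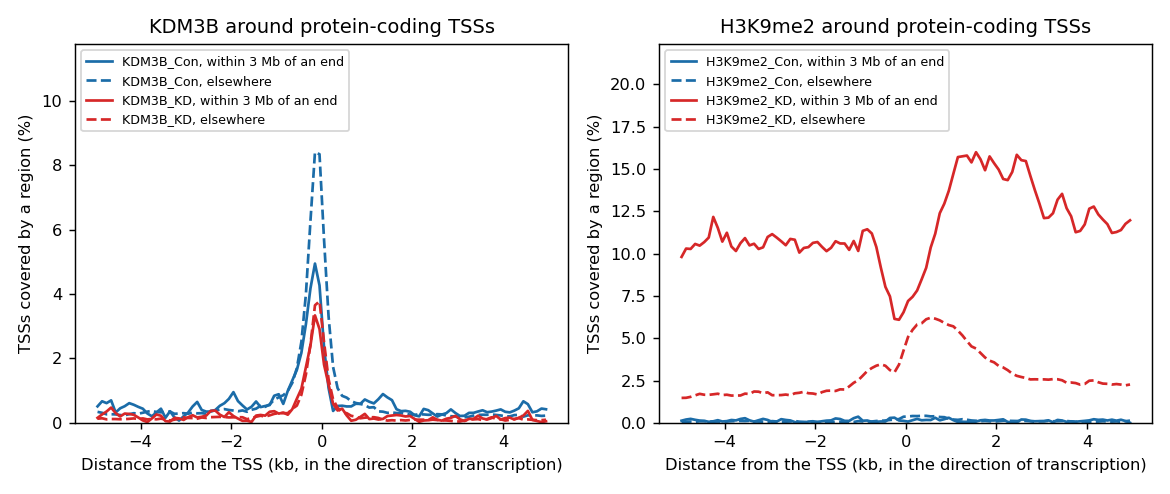
Percent of protein-coding TSSs covered by a region in 100-bp steps from 5 kb upstream to 5 kb downstream, for KDM3B (left) and H3K9me2 (right), Con in blue and KD in red, with solid lines within 3 Mb of an autosome end and dashed lines elsewhere. KDM3B_Con was highest just upstream of the TSS (4.95% at the ends, 8.41% elsewhere), and H3K9me2_KD at the ends dipped at the TSS and reached 16% downstream of it.

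The 10 genes at the ends with the largest increase in H3K9me2 cover from Con to KD lay on 16q, 9q, 21q, 11p and 8q, in windows of 61.1% to 65.7% GC. CDH15, which encodes the muscle cadherin, had no H3K9me2 cover in Con and 7956 bp in KD, of a window of 5 kb on either side of its TSS at position 89238156 of chromosome 16. The cover came from 5 regions, the largest of which, chr16:89238201-89244800, began just downstream of the TSS and had the highest score (1837) of all H3K9me2_KD regions at the ends and, at 6600 bp, the largest width, which a region at FTCD shared. KDM3B covered 200 bp of the same window in Con and 100 bp in KD, about 4 kb upstream of the TSS.

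On the long arm of chromosome 9, PTGDS, a prostaglandin D synthase gene, had 100 bp of H3K9me2 cover in Con and 7301 bp in KD, and shared its window with the gene ENSG00000284341. The windows of SOHLH1, a transcription factor gene of germ cells, with 200 bp in Con and 7201 bp in KD, and KCNT1, a potassium channel gene, with 0 and 6800 bp, overlap as well. FTCD on 21q, an enzyme of histidine and folate metabolism, went from 200 to 7308 bp, most of it in chr21:47569501-47576100, which spans the TSS. The remaining genes were LY6D (200 and 7300 bp), PABPN1L (0 and 6801 bp), LSP1, which encodes an actin-binding protein of leukocytes (0 and 6800 bp), and SLURP2 (100 and 6801 bp). Among these 10, KDM3B was listed in Con in the windows of CDH15 and LY6D, where 25.4% of all genes at the ends were marked. LY6D had none in KD.

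The 5 genes at the ends with the most KDM3B cover in Con were TRAF7, ARHGDIA, RPS2, PLEC and RAB26. TRAF7, a ubiquitin ligase gene on 16p, had 2118 bp of KDM3B cover in Con and 400 bp in KD, with H3K9me2 cover of 0 and 2700 bp. RAB26, its neighbour and a small GTPase gene, had 1226 bp of KDM3B cover in Con and 0 in KD, and H3K9me2 cover of 0 and 1875 bp. Their windows overlap and share a KDM3B_Con region of 1400 bp, chr16:2202901-2204300, a width that was the largest of that list at the ends and was reached by another member on 19p. ARHGDIA had 1900 and 1100 bp of KDM3B cover and no H3K9me2 cover in either population. RPS2, a ribosomal protein gene, had 1500 and 200 bp of KDM3B cover and 0 and 700 bp of H3K9me2 cover. For the cytolinker gene PLEC the values were 1300 and 0 bp of KDM3B and 0 and 1901 bp of H3K9me2. KDM3B cover was lower in KD at all 5, a direction that the choice by cover in Con favours, and H3K9me2 cover was higher at 4.

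Genes of the Wnt pathway, the pathway of the study, numbered 12 at the ends. H3K9me2_KD marked 10 of them, against 68.0% of all genes at the ends, KDM3B_Con marked 1 (against 25.4%), and KDM3B_KD and H3K9me2_Con marked 0 (against 16.2% and 6.90%). The median increase in H3K9me2 cover was 1241.5 bp, where it was 500 bp over all genes at the ends and 0 bp over all autosomal genes. These genes were not matched on composition. Their windows ran from 45.9% GC at CSNK2A1 to 68.3% at DVL1, where the mean over all genes at the ends was 54.5%. At 55 to 65% GC, H3K9me2_KD marked 91.8% of all genes at the ends. The part of composition in the Wnt values was not tested. Of extracellular regulators, NOTUM, which removes the lipid from Wnt ligands, had 3963 bp of H3K9me2 cover in KD and 0 in Con, the ligand gene WNT5B had 100 bp and 0, and the agonist gene RSPO4 had none in either. Among cytoplasmic components, DVL1, a Dishevelled gene, had 2898 bp in KD, and NKD2, an inhibitor that binds Dishevelled, had 2900 bp in KD. NKD2 was the only gene among the 12 at the ends with KDM3B (100 bp in Con). APC2 and AXIN1, of the complex that degrades β-catenin, had 2300 and 600 bp. The kinase genes CSNK1G2 and CSNK1D had 2300 and 900 bp, and CSNK2A1 had none. The corepressor genes CTBP1 and TLE6 had 1583 and 100 bp. H3K9me2 cover in Con was 0 at all 12.

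Histone methylation enzymes numbered 6 at the ends, and H3K9me2_KD marked 4, a share close to the 68.0% of all genes at the ends. PRDM16, a PR-domain protein gene, had 4201 bp of H3K9me2 cover in KD, EHMT1, a methyltransferase for H3K9 itself, had 944 bp, SMYD3 had 500 bp and DOT1L, the H3K79 methyltransferase gene, 100 bp, all with 0 in Con. KDM5A, a demethylase of H3K4, and NSD2, a methyltransferase of H3K36, had none. KDM3B marked DOT1L in Con and KDM5A in KD, where it marked 25.4% and 16.2% of all genes at the ends. Of 4 telomere and telomerase genes H3K9me2_KD marked 3, where 68.0% of all genes at the ends were marked, and the 3 had 200 to 3500 bp of H3K9me2 cover in KD. Of these 4, KDM3B marked RTEL1, a helicase gene of telomere maintenance, in both populations, beside the same shares over all genes at the ends. Of the 5 genes of the alpha globin cluster, near the tip of 16p, H3K9me2_KD marked only HBM, with 300 bp, against 68.0% of all genes at the ends. KDM3B marked none of them, against 25.4% in Con and 16.2% in KD. The cluster contains near-identical copies to which few reads map uniquely, and the part of this in the counts was not tested.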

How the data were processed

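KDM3B and H3K9me2 ChIP-seq was performed in control and KDM3A/B-depleted HCT116 cells, 1 library each, with 2 input libraries, for which no list was used here. Per the labels and the study's methods, reads were aligned to hg19 with Bowtie (version not given in the sources used here), allowing few mismatches, a unique position and 1 read per position, and windows of 100 bp were compared with input by a Poisson test. The deposited lists give each region's position and a score assigned by the authors, whose definition is not given in the sources used here. The score served for ranking, and its medians and highest values are given as a description only. Unique mapping can leave duplicated subtelomeric sequence without regions.

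Members were regions whose centre lay within 3 Mb of an autosome end. Densities used assembled bases of GRCh37 and exact counting intervals, and shares used Wilson intervals. GC standardisation used 1-kb tiles in classes of 2 percentage points. Gene windows (5 kb) used canonical TSSs of GENCODE, lifted to GRCh37. Calculations used Python 3.11.15, numpy 2.4.6, pandas 2.3.3 and scipy 1.17.1, and were checked on simulated lists. With 1 library per group no test was made. Named genes were those of 4 lists (Wnt pathway, histone methylation enzymes, alpha globin cluster, telomere and telomerase genes), the 10 with the largest H3K9me2 increase and the 5 with most KDM3B cover in Con. Ends named were the 5 highest and 3 lowest by density, and those far from their GC expectation, which were picked after their values were seen. Members and lists were chosen with earlier results of these data known. Alternatives covered the distance, score, width, merging, covered bases, tile matching, equal list sizes and chromosomes gained in HCT116. Sequences were read from GRCh37, whose chromosome lengths match hg19.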

Additional observations from a re-analysis of the deposited data

Results flagged for a closer look

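Chromosome X was outside the autosomal comparison. Within 3 Mb of its ends, H3K9me2_KD listed 177 regions where the control population listed 4, which is why this value is given here. Of the 177 regions, 175 lay at the end of the long arm. Their density over both ends together, 5.58 Mb of assembled bases, was 31.7 per Mb, against 3.82 per Mb elsewhere on the chromosome. This pooled value describes neither arm alone, and it was not set against GC content. H3K9me2_Con stood at 0.717 per Mb at these ends and 1.53 per Mb elsewhere. KDM3B_Con listed 18 regions at the ends and KDM3B_KD 12. There was 1 library of each kind, and no test was made.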

How the results depend on the processing

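Of 80 values recomputed under the alternatives, 38 stayed within the counting interval of the reported value, 40 moved beyond it and 2 reversed; the cause was not tested. The reversals were the GC-standardised ratio of H3K9me2_KD with regions less than 1 kb apart merged (0.972) and the KD to Con ratio of KDM3B with equal numbers of regions (1.18, H3K9me2 4.16). No paired analysis was possible because each antibody and population had 1 library, and no replicate could be left out. Tiles with few repeat-masked bases were not run, since the sequence used is not masked. Depth is unknown, so that a missing region cannot be told apart from one under the detection limit of its library.

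In the order list by list, the density ratio, then the GC-standardised ratio, then the KD to Con ratio moved as follows. Within 1 Mb, H3K9me2_KD had a density ratio of 4.55; the standardised ratios were 0.495 (KDM3B_Con), 0.748 (H3K9me2_Con) and 1.06 (H3K9me2_KD), and the H3K9me2 KD to Con ratio was 18.4. Within 5 Mb these were 5.65, then 0.514, 0.800 and 1.27, then 17.5. With the 50% of each list that scored highest, density ratios were 1.31 (KDM3B_Con), 1.45 (KDM3B_KD), 2.23 (H3K9me2_Con) and 7.19 (H3K9me2_KD), and standardised ratios 0.412 (KDM3B_Con) and 1.20 (H3K9me2_KD). Merging gave H3K9me2_KD a density ratio of 4.37 and a KD to Con ratio of 12.2. With regions wider than 1 window, density ratios were 2.28 (H3K9me2_Con) and 6.83 (H3K9me2_KD), standardised ratios 0.414 (KDM3B_Con) and 0.607 (H3K9me2_Con), and KD to Con ratios 0.448 (KDM3B) and 42.3 (H3K9me2). By covered bases, density ratios were 1.51 (KDM3B_Con), 2.08 (H3K9me2_Con) and 8.25 (H3K9me2_KD), standardised ratios 0.644 (H3K9me2_Con) and 1.35 (H3K9me2_KD), and KD to Con ratios 0.462 (KDM3B) and 53.0 (H3K9me2). Matching on GC content and CpG count gave 0.515 (KDM3B_Con), 0.540 (KDM3B_KD) and 1.02 (H3K9me2_KD). Tiles of 500 bp gave 0.624 (H3K9me2_Con) and 1.10 (H3K9me2_KD). Without chromosomes 8, 10, 16 and 17, on whose arms gains are reported in HCT116, density ratios were 1.29 (KDM3B_Con) and 1.41 (KDM3B_KD), and the standardised ratio of H3K9me2_KD was 1.21. The share of H3K9me2_KD regions at the ends with equal list sizes, 31.9% against 20.3%, was computed after the data were seen.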
